A study of Mus musculus with 6 samples.

Results

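The proteasome genes described here are the 48 rows, of the 55453 in the deposited count table, whose mouse symbol is Psma, Psmb, Psmc, Psmd, Psme, Psmf or Psmg followed by a number. Membership rests on the symbol alone. The immunoproteasome genes Psmb8, Psmb9, Psmb10, Psme1 and Psme2 were set apart, which left 43 others. Of the 48, 47 had enough counts to be tested, and the exception was Psmb11, the subunit of the thymus proteasome, with 2 counts in homozygous replicate 2 and 0 in each of the other libraries.

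The proteasome degrades proteins that carry ubiquitin chains. Its barrel-shaped core particle is a stack of rings, in which alpha subunits form the gates and beta subunits form the walls, and Psmb5, Psmb6 and Psmb7 carry the proteolytic sites. A regulatory particle caps the barrel, where a ring of ATPases unfolds the substrate and a lid removes its ubiquitin. Interferon gamma induces Psmb8, Psmb9 and Psmb10, which replace Psmb5, Psmb6 and Psmb7 in newly made cores, together with the cap-forming activator subunits Psme1 and Psme2. The immunoproteasome so formed is abundant in leukocytes and cuts proteins into peptides for presentation on class I molecules.

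RNA came from mouse aortae, taken between the descending arch and the renal branches. Each aorta was stripped of adventitia and endothelium, per the protocol, and frozen on its own. Markers of both layers were still counted in every library. The control mice were heterozygous and the experimental mice homozygous for a floxed allele of Srf, which encodes serum response factor. All mice were hemizygous for Itga8-CreERT2, a Cre recombinase that acts after tamoxifen in cells using the Itga8 locus, and all received 5 daily intraperitoneal doses of 33 mg/kg tamoxifen and were killed 10 days after the last. The comparison asks what differs when recombined cells lose both copies of Srf rather than 1, so the controls are themselves short of 1 copy in those cells, and cells without the driver keep Srf in both groups. The labels give neither the age nor the sex of the mice. The table holds 3 heterozygous libraries (replicates 1, 2 and 3) and 2 homozygous libraries (replicates 2 and 3). Homozygous replicate 1 was not analysed here, and the submitters state that they left out 1 homozygous sample as an outlier.

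Library totals ranged from 26177821 to 34311855 counts. As a check of the labels, Srf stood at 56.1, 64.4 and 68.3 CPM (counts scaled to library size) in heterozygous aortae against 45.0 and 38.6 CPM in homozygous aortae, a log2 fold change of -0.59 (edgeR adjusted p = 0.115; DESeq2 adjusted p = 0.00373). The 6 smooth muscle markers, whose defining members Acta2 and Myh11 were abundant in all 5 libraries, summed to between 23551 and 24842 CPM in heterozygous and between 13635 and 14250 CPM in homozygous libraries. Tissue around the vessel was also present. The 12 skeletal muscle markers summed to between 10.3 and 685 CPM in heterozygous and between 1015 and 2756 CPM in homozygous libraries. Heterozygous replicate 3 stood apart with the lowest of these sums, and Myh4 and Pvalb were at 0 counts there. In bulk tissue, fewer cells of a type and less RNA per cell cannot be told apart. Since each library is a separate aorta, the p-values below rest on the spread among 5 aortae.

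To show the letters searched for in immune and constitutive genes, promoter windows were taken from RefSeq (GRCm38.p6), running from 250 bases before to 50 bases after an annotated start. Such windows were found for 40 of the 48 genes, 5 immunoproteasome and 35 other genes, and some genes have more than 1. Psmb5 is shown as a constitutive catalytic subunit with an antioxidant response element. Psme1 is shown as the immunoproteasome gene with an interferon-stimulated element, and Psma6 as the only member with a CArG box, the element that serum response factor binds. Capitals mark the match, and each window reads 5′ to 3′ on the strand of the gene.
Psmb5 (chr14:54617946-54618245, minus strand, capitals: antioxidant response element letters): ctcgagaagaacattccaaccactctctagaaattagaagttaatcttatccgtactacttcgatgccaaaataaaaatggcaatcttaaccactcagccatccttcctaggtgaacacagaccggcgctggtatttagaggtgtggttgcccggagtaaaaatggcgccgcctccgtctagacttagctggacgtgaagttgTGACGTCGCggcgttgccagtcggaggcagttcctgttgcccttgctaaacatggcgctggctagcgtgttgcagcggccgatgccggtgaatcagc
Psme1 (chr14:55578244-55578543, plus strand, capitals: interferon-stimulated element letters on the other strand): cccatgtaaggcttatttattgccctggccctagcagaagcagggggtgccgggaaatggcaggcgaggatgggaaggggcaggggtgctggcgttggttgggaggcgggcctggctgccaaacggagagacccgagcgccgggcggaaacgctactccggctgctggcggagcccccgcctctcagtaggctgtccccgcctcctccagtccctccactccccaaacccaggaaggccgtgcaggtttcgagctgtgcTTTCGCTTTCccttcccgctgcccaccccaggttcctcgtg
Psma6 (chr12:55383972-55384271, plus strand, capitals: CArG box): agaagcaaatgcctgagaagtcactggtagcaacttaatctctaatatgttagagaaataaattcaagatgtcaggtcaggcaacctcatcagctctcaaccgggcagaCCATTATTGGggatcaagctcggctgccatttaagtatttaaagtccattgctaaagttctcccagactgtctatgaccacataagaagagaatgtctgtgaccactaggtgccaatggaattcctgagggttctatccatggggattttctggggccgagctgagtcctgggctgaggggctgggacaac

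Both strands were searched for a pair of GAAA words with 2 bases between them (interferon-stimulated element), TGACNNNGC (antioxidant response element, read by NRF1 and NRF2), the CCAAT box (those 5 letters) and the CArG box. The interferon-stimulated element lay in windows of 1 of 5 immunoproteasome genes (Psme1) and 4 of 35 others, against 3.99% of all 27025 genes with a window (3.44% of 32851 windows). Antioxidant response letters lay in 0 of 5 and in 6 of 35, Psmb5 and Psmb6 among them, against 14.0% of genes (12.4% of windows). CCAAT lay in 1 of 5 (Psmb9) and 13 of 35, against 41.1% of genes (37.4% of windows). The CArG box lay in 0 of 5 and in 1 of 35, against 1.81% of genes (1.63% of windows), and its match in the first Psma6 window overlaps a CCAAT box on the other strand. The second Psma6 window (chr12:55398575-55398874) held no CArG box. These are matches of letters, not sites shown to be bound, and a window without a match says only that the letters are absent from it.

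Proteasome transcripts made up a similar share of the RNA in both groups. All 48 together took 0.198%, 0.202% and 0.187% of the counts in heterozygous replicates 1, 2 and 3, and 0.192% and 0.207% in homozygous replicates 2 and 3. The homozygous values lie within or just above the heterozygous range. The 43 genes outside the immunoproteasome summed to 1879, 1975 and 1877 CPM in heterozygous and to 1785 and 1936 CPM in homozygous libraries, so the groups overlap. The 5 immunoproteasome genes summed to 80.5, 80.1 and 73.9 CPM in heterozygous and to 89.6 and 92.5 CPM in homozygous libraries, with both homozygous libraries above all 3 others.

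Levels were compared between genes as TPM, counts scaled to library size and corrected for the length of the longest principal transcript. On this scale the most abundant member was Psmb6, the caspase-like catalytic subunit, at a mean of 182 TPM over the 5 libraries. It was followed by the lid subunit Psmd8 at 148 TPM, the ubiquitin receptor Psmd4 at 124 TPM, the alpha subunit Psma7 at 123 TPM and the ATPase Psmc3 at 122 TPM, the last 3 within the range of one another over the libraries. Psmb5, the chymotrypsin-like subunit, was the lowest of the 7 constitutive beta subunits at 36.4 TPM. Its immune counterpart Psmb8 was at 14.9 TPM, Psmb9 at 9.50 TPM and Psmb10 at 20.0 TPM. The activator subunits Psme1 and Psme2 were far more abundant, at 70.2 and 83.9 TPM. The 6 ATPases lay between 74.1 and 122 TPM and the 8 lid subunits between 50.4 and 148 TPM, while the 3 base chaperones, which help the cap to assemble, reached only 10.7 to 16.2 TPM. The choice of length matters: by the union of exons Psma6 led at 129 TPM and Psmb6 stood at 104 TPM, and Psmb3 (43.6 TPM) and Psmb1 (46.7 TPM) were below Psmb5 (48.7 TPM).

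**Figure D1:**
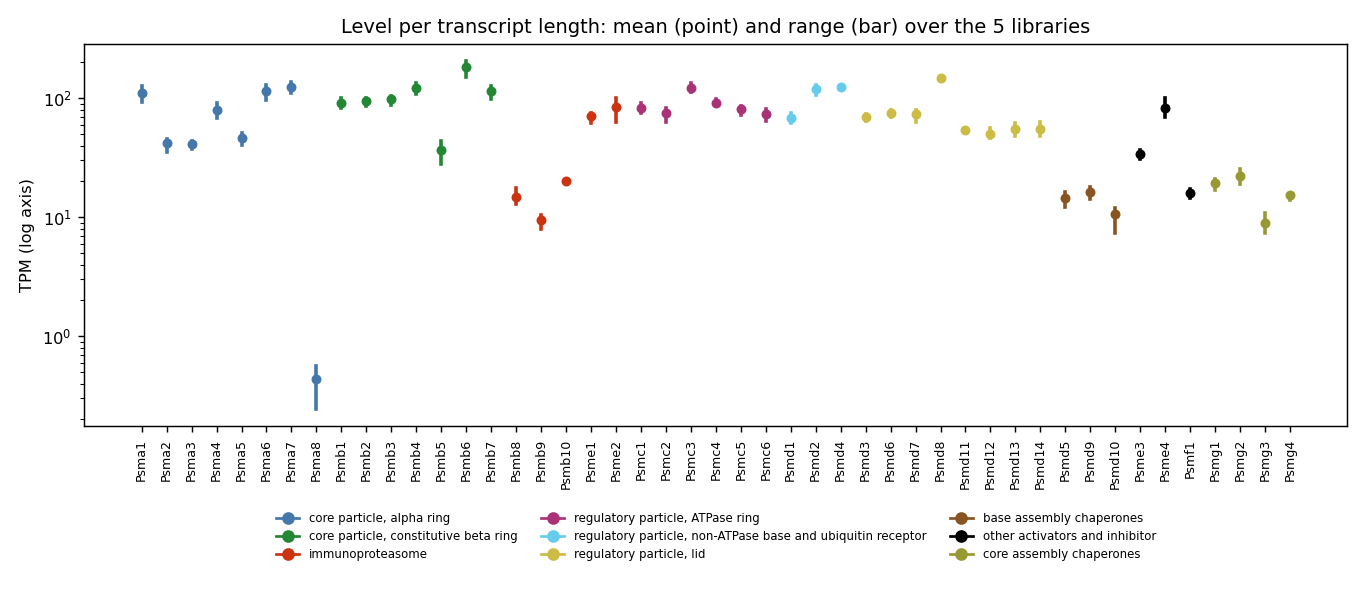
Level of each of the 47 tested members in TPM (log axis), coloured by role, with the mean of the 5 libraries as a point and their range as a bar. Psmb6 is highest at 182 TPM, the immune catalytic subunits lie between 9.50 and 20.0 TPM, and the testis subunit Psma8 is lowest at 0.436 TPM.

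No proteasome gene passed the test between genotypes. The edgeR quasi-likelihood test with Benjamini-Hochberg adjustment called 0 of the 47 members higher or lower, against 0 of all 18192 genes in each direction (0% higher and 0% lower). DESeq2, which gave no adjusted p to Psma8, called 0 of the other tested members. It called 5.94% of the 15741 genes to which it gave an adjusted p (3.33% higher and 2.61% lower). At an unadjusted edgeR p under 0.05, 2 members were higher (Psmb8 and Psme2) and 0 lower, against 9.04% and 6.75% of all genes (15.8% in either direction). With homozygous replicate 2 or homozygous replicate 3 left out, 0 members were higher at that level, and with heterozygous replicate 1 left out, 1 was. Libraries of the groups did not overlap for 8 members with the homozygous libraries higher and 3 with them lower, against 17.4% and 18.2% of all genes, and they overlapped for 36. The median log2 fold change, homozygous over heterozygous, was -0.0025 over the members and -0.018 over all genes tested. The median size of the change, whatever its sign, was 0.07 for the members and 0.18 for all genes.

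The intervals of most members stayed close to 0, which reflects both the size of the change and its precision. The members were not matched by level to all genes, here or for the median size above. The 95% interval of the log2 fold change lay wholly between -0.5 and 0.5, a range chosen after the values were seen, for 39 of the 47 members, against 38.4% of all genes. Differences within these intervals were not detectable with 3 and 2 libraries.

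**Figure D2:**
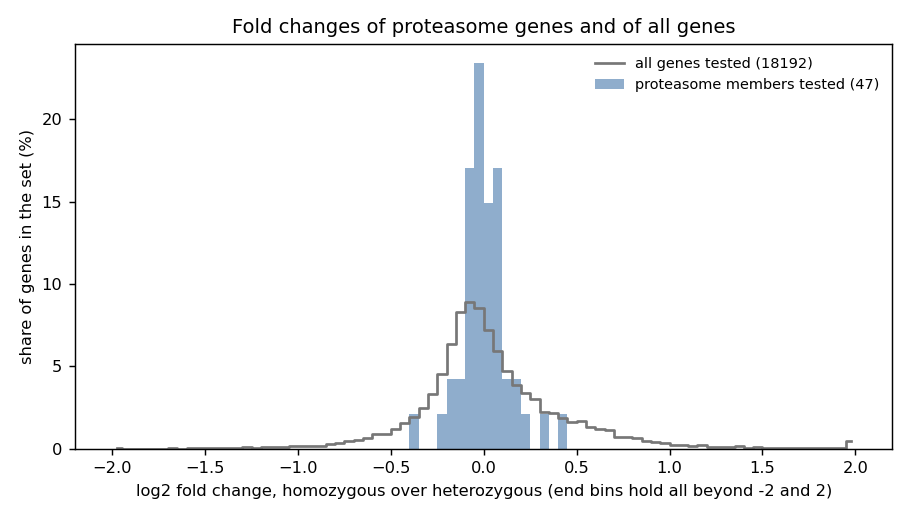
Share of genes (%) by log2 fold change for all 18192 genes tested (grey line) and for the proteasome members tested (bars), with the end bins holding all values beyond -2 and 2. The members lie between -0.40 and 0.41, close to the centre of the distribution of all genes.

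The alpha ring, whose subunits gate the core, differed little between the groups. The median over its 8 tested members was 0.015 on the log2 scale, and libraries overlapped for 7. Psma1 stood at 47.5, 52.8 and 44.6 CPM in heterozygous and at 46.9 and 56.0 CPM in homozygous libraries, a log2 fold change of 0.09 (SE 0.118; edgeR adjusted p = 0.761). Homozygous replicate 2 lies inside the heterozygous range and homozygous replicate 3 above it. Psma2 had 47.9, 47.8 and 41.0 CPM against 44.3 and 48.0 CPM, giving a log2 fold change of 0.02 (SE 0.105), with overlapping groups. Psma6 was the 1 member of the ring whose libraries did not overlap, where 35.6% of all genes had none.

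Psma6 (chromosome 12, 55384222 to 55418454 on GRCm38) stood at 42.9, 44.9 and 39.9 CPM in heterozygous and at 46.7 and 49.5 CPM in homozygous libraries. Both homozygous libraries lie above all heterozygous ones. The log2 fold change was 0.18 (SE 0.0922; 95% interval -0.04 to 0.39), which did not pass (edgeR adjusted p = 0.418). Psma8, a subunit of the testis proteasome, had 5 to 12 counts per library and a log2 fold change of -0.40 (SE 0.48), so few counts stand behind its value.

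The constitutive beta ring had a median of -0.0078 on the log2 scale over 7 members, with a range of -0.09 (Psmb4) to 0.08 (Psmb2). Psmb5 stood at 12.3, 14.6 and 9.91 CPM in heterozygous and at 13.2 and 11.4 CPM in homozygous libraries. Both homozygous values fall inside the heterozygous range, and the 95% interval of the log2 fold change ran from -0.42 to 0.42. Psmb6 had 57.6, 60.8 and 47.9 CPM against 52.1 and 53.4 CPM, giving a log2 fold change of -0.07 (SE 0.119), again with the homozygous libraries inside the heterozygous range. Psmb7, the trypsin-like subunit, had 50.1, 52.3 and 45.3 CPM against 47.7 and 54.0 CPM, giving a log2 fold change of 0.05 (SE 0.105), with overlapping groups. Psmb1, a structural beta subunit and the most abundant of the ring in CPM, had 63.7, 62.5 and 57.5 CPM against 56.6 and 60.4 CPM, giving a log2 fold change of -0.07 (SE 0.0919). Psmb5 shares 22.2% of its 100-base words with a near copy, Gm3375, and a microRNA gene within it, so its counts are less certain than those of its neighbours in the ring.

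Heterozygous replicate 3 sets much of the spread in the core. Among the 14 constitutive core subunits other than Psma8, it was the lowest of the 5 libraries for 12, and homozygous replicate 2 for the other 2. That library was the lowest for 25.9% of all genes. Relative to the heterozygous mean, the median log2 level of these 14 subunits was 0.04, 0.07 and -0.12 in heterozygous replicates 1, 2 and 3, and -0.04 and 0.08 in homozygous replicates 2 and 3. The spread within each genotype is therefore wider than the difference between them. Without heterozygous replicate 3 the median log2 fold change of the beta ring was -0.09, and 0 members were called. This was also the library with the lowest skeletal muscle sum, and the part of muscle tissue in the result was not tested.

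**Figure D3:**
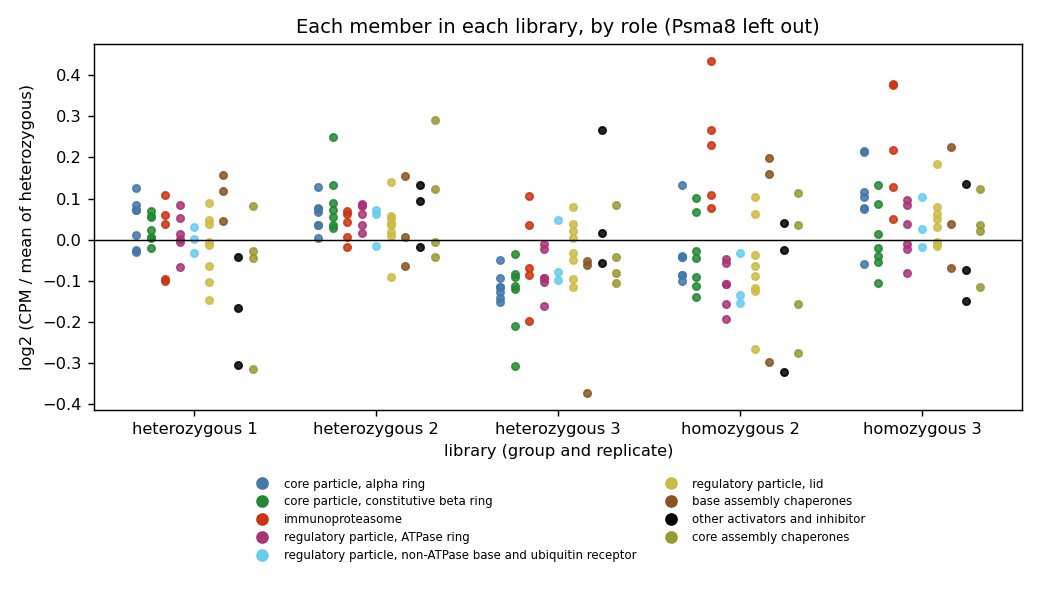
Log2 of each member's CPM over the mean of the heterozygous libraries, in each of the 5 libraries, coloured by role (Psma8 left out). Core subunits of heterozygous replicate 3 sit mostly below 0, with a median of -0.12, and those of homozygous replicate 3 mostly above, with a median of 0.08.

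In the regulatory particle, the 6 ATPases and the 3 non-ATPase base subunits had log2 fold changes at or slightly below 0, none past the test, and their libraries overlapped in every case. The ATPases ranged from -0.12 (Psmc3) to -0.0033 (Psmc4), with a median of -0.04, which was 0.012 without homozygous replicate 2 and 0.0041 without heterozygous replicate 2. Psmc3 stood at 77.7, 82.4 and 72.7 CPM in heterozygous and at 69.6 and 73.4 CPM in homozygous libraries (SE 0.0943; edgeR adjusted p = 0.600). The homozygous libraries are at the lower end, but 1 of them lies above heterozygous replicate 3. Psmc6 had 62.6, 63.6 and 62.4 CPM against 55.0 and 67.2 CPM, giving a log2 fold change of -0.04 (SE 0.107). Here the heterozygous libraries were tightly grouped and the homozygous ones lay on either side.

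Psmd2, a scaffold of the base, stood at 137, 140 and 126 CPM in heterozygous and at 123 and 133 CPM in homozygous libraries, a log2 fold change of -0.07 (SE 0.0971). Psmd1, the other large scaffold, had 80.6, 84.6 and 76.1 CPM against 72.4 and 86.5 CPM, giving a log2 fold change of -0.02 (SE 0.109). Psmd4, the ubiquitin receptor, varied least of the members, its highest library being 1.06 times its lowest. Over the 8 lid subunits the median was -0.0010, with 4 values above and 4 below 0. Psmd8 had 77.3, 89.1 and 90.5 CPM against 83.4 and 87.5 CPM, and Psmd11 had 54.4, 58.4 and 57.7 CPM against 59.4 and 56.6 CPM. Both overlap between the groups, with log2 fold changes of -0.0025 (SE 0.103) and 0.03 (SE 0.086).

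Psmd7, a lid subunit that pairs with the deubiquitinase Psmd14, stood at 44.9, 45.6 and 45.5 CPM in heterozygous and at 37.7 and 44.8 CPM in homozygous libraries. The groups do not overlap, but homozygous replicate 3 nearly meets the heterozygous range. The log2 fold change was -0.13 (SE 0.101; edgeR adjusted p = 0.575), and it was -0.02 without homozygous replicate 2.

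The assembly chaperones went in both directions. Psmd5, a base chaperone, had 25.8, 25.1 and 24.1 CPM in heterozygous and 20.4 and 23.9 CPM in homozygous libraries, a log2 fold change of -0.18 (SE 0.108; edgeR adjusted p = 0.479). Psmg2, a core chaperone that works in a pair with Psmg1, had 9.07, 10.1 and 8.59 CPM against 7.64 and 8.54 CPM, giving a log2 fold change of -0.19 (SE 0.140; edgeR adjusted p = 0.561). In both genes the homozygous libraries are lower without overlap, 1 of them only narrowly. Psmg1 had 7.87, 7.41 and 7.04 CPM against 7.64 and 8.11 CPM, giving a log2 fold change of 0.08 (SE 0.136), and Psmd9 a log2 fold change of 0.12 (SE 0.116), both with overlap. Psmd9 shares 23.9% of its 100-base words with the opposite-strand gene Gm26745, and it is not known whether counting used strand.

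The activators outside the immunoproteasome included the most abundant member in CPM. Psme4, a large single-chain activator, stood at 175, 213 and 259 CPM in heterozygous and at 173 and 195 CPM in homozygous libraries. Heterozygous replicate 3 was the highest library for this gene, the reverse of its place for core subunits, and the groups overlap. The log2 fold change was -0.23 (SE 0.169; edgeR adjusted p = 0.564), and it was -0.06 without that library. Psme3, the nuclear activator, had 29.7, 36.5 and 33.7 CPM against 32.7 and 36.6 CPM, giving a log2 fold change of 0.06 (SE 0.118). Psmf1, an inhibitor of the core, gave -0.02 (SE 0.102).

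Of the genes outside the immunoproteasome, 7 had groups without overlap. The homozygous libraries were higher for Psma6, Psmb2, Psmd3 and Psmd10 and lower for Psmd5, Psmd7 and Psmg2. Psmb2, Psmd3 and Psmd10 are named for this count after their values were seen. The share is 7 of 42, against 35.6% of all genes.

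**Figure D4:**
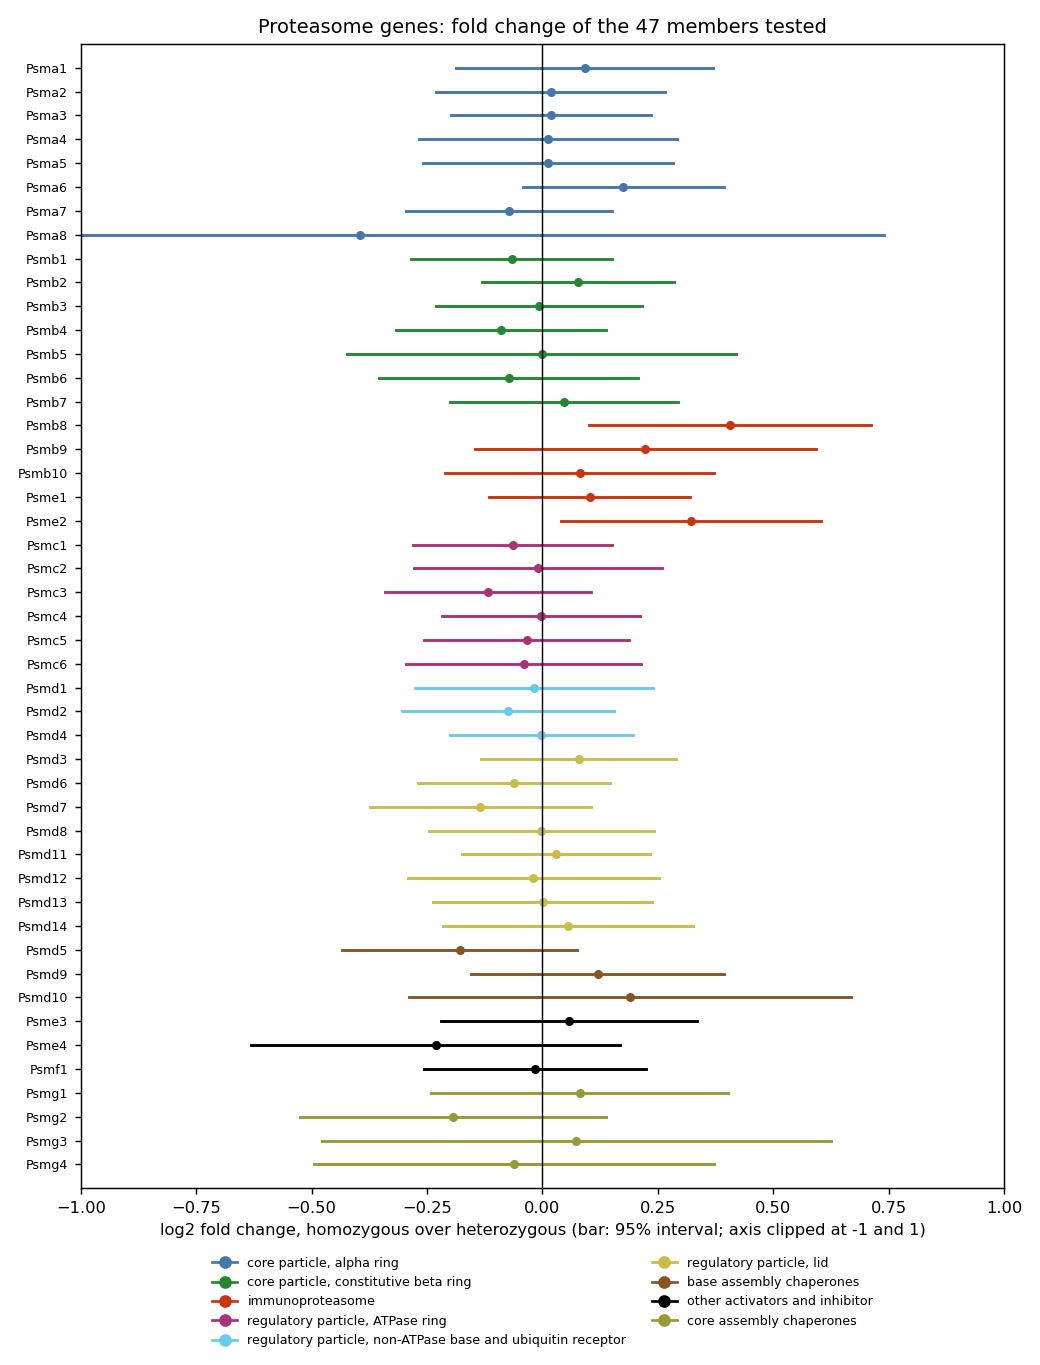
Log2 fold change, homozygous over heterozygous, of the 47 members tested (points) with 95% intervals (bars, axis clipped at -1 and 1), coloured by role. The intervals of Psmb8 (0.10 to 0.71) and Psme2 (0.04 to 0.60) lie above 0, and those of the other members include it.

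The immunoproteasome genes all had log2 fold changes above 0, with a median of 0.22, against -0.0056 for the 42 other members and -0.018 for all genes. None passed the test. Libraries did not overlap for 4 of the 5, all with the homozygous libraries higher, against 17.4% of all genes in that direction. Psmb8 (chromosome 17, 34197721 to 34201454), the counterpart of Psmb5, stood at 7.53, 7.95 and 8.67 CPM in heterozygous and at 10.9 and 10.4 CPM in homozygous libraries. Both homozygous libraries lie clearly above the highest heterozygous one. The log2 fold change was 0.41 (SE 0.129; 95% interval 0.10 to 0.71), a 1.33-fold higher level, with an edgeR adjusted p of 0.210 and a DESeq2 adjusted p of 0.164. Over 11 alternative fits its log2 fold change lay between 0.36 and 0.48 and its adjusted p between 0.164 and 0.609.

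Psme2 (chromosome 14, 55587441 to 55591113), a subunit of the interferon-induced activator, stood at 29.6, 28.9 and 24.0 CPM in heterozygous and at 33.1 and 35.7 CPM in homozygous libraries. The groups do not overlap. The log2 fold change was 0.32 (SE 0.119; 95% interval 0.04 to 0.60), with an edgeR adjusted p of 0.262, against 0.180 to 0.703 over the alternatives. Heterozygous replicate 3 was the lowest here too, and without it the log2 fold change was 0.25. Psme2 shares 18.4% of its 100-base words with Psme2b, which had only 26 to 47 counts per library.

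Psme1 (chromosome 14, 55578123 to 55581529), the partner subunit of Psme2, stood at 29.7, 28.6 and 27.1 CPM in heterozygous and at 30.0 and 31.1 CPM in homozygous libraries. The groups are separate by a narrow margin, and the log2 fold change of 0.10 (SE 0.0919) had an edgeR adjusted p of 0.644. Psmb9 (chromosome 17, 34181987 to 34187764), the counterpart of Psmb6, had 4.64, 4.66 and 4.26 CPM against 5.30 and 5.25 CPM. The homozygous libraries are higher without overlap, by a log2 fold change of 0.22 (SE 0.156; edgeR adjusted p = 0.547). Psmb10 (chromosome 8, 105935735 to 105938444), the counterpart of Psmb7, had 8.98, 10.1 and 9.87 CPM against 10.4 and 9.98 CPM. Those groups overlap, with a log2 fold change of 0.08 (SE 0.123; edgeR adjusted p = 0.801).

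**Figure D5:**
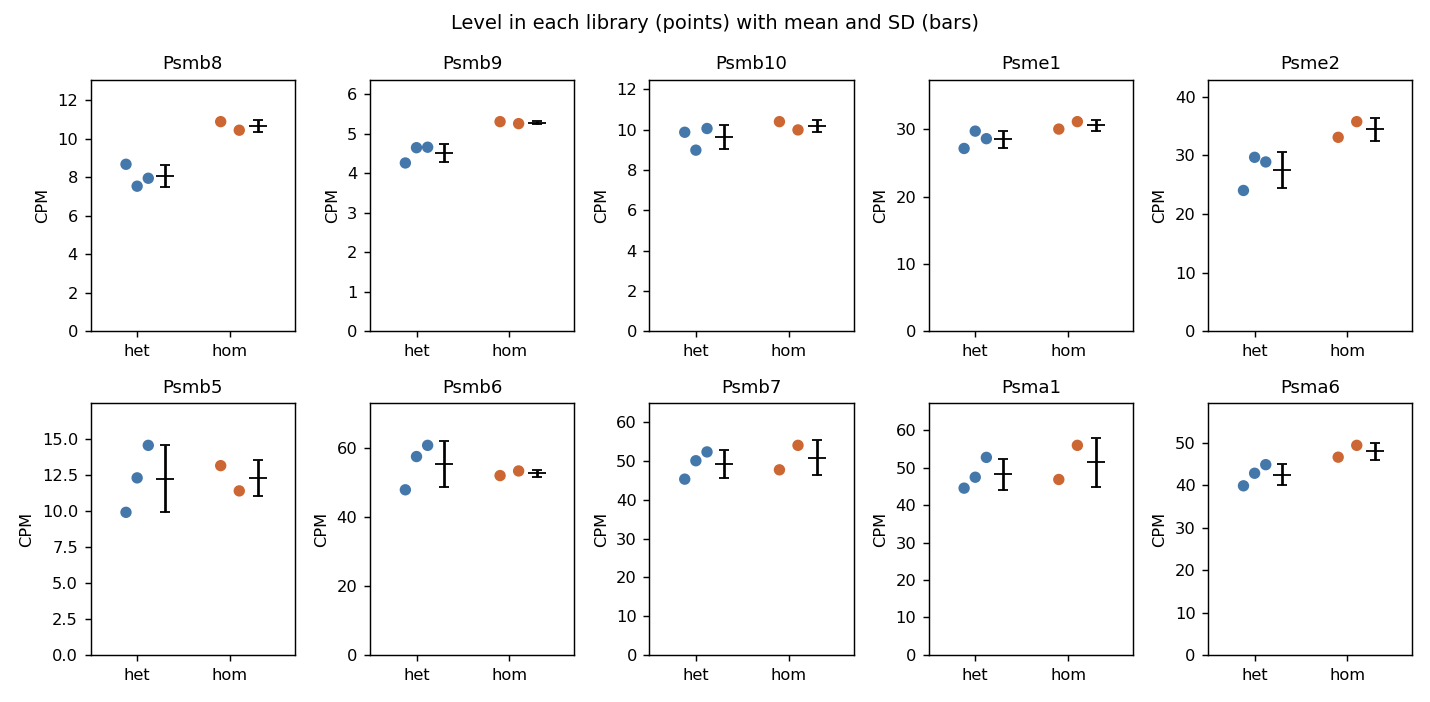
CPM of the 5 immunoproteasome genes and of Psmb5, Psmb6, Psmb7, Psma1 and Psma6 in each library (points), with group mean and SD (bars; n = 3 heterozygous, n = 2 homozygous). Psmb8 reaches 10.4 and 10.9 CPM in homozygous libraries against at most 8.67 CPM in heterozygous ones, while Psmb5 overlaps.

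Each immune catalytic subunit was also set against the constitutive subunit it replaces, within each library and per transcript length, which does not depend on library scaling. No test was run on the ratios, since an exact permutation test of 3 against 2 libraries cannot reach 0.05. The ratio of Psmb8 to Psmb5 was 0.338, 0.301 and 0.483 in heterozygous aortae against 0.457 and 0.506 in homozygous ones. Heterozygous replicate 3 lies between the homozygous libraries, so the groups overlap, even though Psmb8 itself does not. The ratio of Psmb9 to Psmb6 was 0.0476, 0.0452 and 0.0524 against 0.0601 and 0.0580, with both homozygous libraries higher and a difference of 0.29 on the log2 scale. The ratio of Psmb10 to Psmb7 was 0.159, 0.170 and 0.193 against 0.193 and 0.163, which overlap. With exon-union lengths the mean heterozygous ratio of Psmb8 to Psmb5 was 0.177 in place of 0.367 and that of Psmb10 to Psmb7 0.393 in place of 0.173, so the order of these pairs depends on the length used, while the differences between groups are the same by construction. As a share of the TPM of all members, the immunoproteasome genes made up 6.10%, 5.82% and 5.78% in heterozygous aortae against 7.01% and 6.79% in homozygous ones.

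Markers of leukocytes were also at higher levels in the homozygous libraries. The 12 macrophage markers summed to between 271 and 356 CPM in heterozygous and between 426 and 570 CPM in homozygous libraries. All 12 had log2 fold changes above 0, with a median of 0.64, and 6 were called higher by DESeq2 (3.33% of all genes) and 0 by edgeR. The 7 pan-leukocyte markers summed to between 55.0 and 62.7 CPM against between 77.2 and 101 CPM, with a median of 0.54 and 2 called higher by DESeq2. The 10 lymphocyte markers, 3 of which could be tested, summed to between 1.47 and 2.28 CPM against between 1.24 and 2.80 CPM, and Cd3d and Cd79a were at 0 counts in heterozygous replicate 3. Macrophage and pan-leukocyte sums did not overlap between the groups and lymphocyte sums did. Their part in the immunoproteasome values was not tested.

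Among other tissue markers, brown adipocyte, adipocyte and erythrocyte sums did not overlap between the groups. The 8 brown adipocyte markers summed to between 271 and 692 CPM in heterozygous and between 1007 and 1094 CPM in homozygous libraries, and the 12 adipocyte markers to between 2893 and 3830 CPM against between 4684 and 4794 CPM. The 10 adventitial fibroblast markers summed to between 1529 and 2137 CPM against between 2092 and 2331 CPM, and the 12 endothelial markers to between 896 and 1194 CPM against between 524 and 1319 CPM. Fibroblast and endothelial sums overlap. The 5 erythrocyte markers summed to between 37.9 and 297 CPM against between 23.9 and 28.9 CPM. The part of these tissues in the proteasome values was not tested.

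Among 13 interferon signalling and peptide-loading genes, which share regulators with the immunoproteasome, the median log2 fold change was 0.08. DESeq2 called 2 higher and edgeR 0, against 3.33% and 0% of all genes. At an unadjusted edgeR p under 0.05, 4 were higher, against 9.04% of all genes. Those 4 included Ciita, B2m and Irf8, the last named after its value was seen. Libraries did not overlap for 6, all with the homozygous libraries higher, against 17.4% of all genes in that direction. Ciita, the activator of class II genes, had 5.50, 5.13 and 5.09 CPM in heterozygous against 7.14 and 10.1 CPM in homozygous libraries, without overlap, giving a log2 fold change of 0.72 (SE 0.184; edgeR adjusted p = 0.149; DESeq2 adjusted p = 0.0333), or 0.45 without homozygous replicate 3. B2m, the light chain of class I molecules, gave 0.28 (edgeR adjusted p = 0.284), and Tapbp, the peptide-loading chaperone tapasin, 0.04. Tap1 and Tap2, the peptide transporter genes that lie beside Psmb8 and Psmb9, gave 0.08 (SE 0.106) and 0.06 (SE 0.0961), smaller values than that of Psmb8, though this difference was not tested. Psmb9 and Tap1 overlap on opposite strands over 5.79% of the exons of Psmb9. An opposite-strand gene, Gm20496, overlaps 14.7% of the exons of Psmb8 and had 0 counts in 4 libraries and 4 in homozygous replicate 3.

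Proteasome genes whose symbols fall outside the pattern had a median of -0.06 on the log2 scale over 8 genes. None was called by edgeR or DESeq2, against 0% and 5.94% of all genes. These 8 genes included the ubiquitin receptor Adrm1 (-0.11), the deubiquitinases Uchl5 (-0.15) and Usp14 (-0.08) and the proteasome adaptor Ecpas (0.05). The 6 genes around NRF1, the factor that raises proteasome genes when proteasome activity is low, had a median of -0.03. None of the 6 was called, against the same shares of all genes. Nfe2l1, which encodes NRF1, gave 0.06 (SE 0.113), and Ddi2, the protease that activates it, -0.07 (SE 0.0857). Mafk, a small Maf partner of NRF1, had 80.9, 92.8 and 99.1 CPM in heterozygous and 72.9 and 71.8 CPM in homozygous libraries. It was lower in both homozygous libraries without overlap, by a log2 fold change of -0.33 (SE 0.110; edgeR adjusted p = 0.226), and Mafg, another partner, gave -0.18.

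Genes that supply ubiquitin or deliver substrates showed small values. Over 9 genes of ubiquitin supply and the p97 unfoldase the median was -0.08, with 8 below 0. None was called by edgeR or DESeq2, against 0% and 5.94% of all genes. Rps27a, which encodes ubiquitin fused to a ribosomal protein, gave -0.22 (SE 0.100) and the activating enzyme Uba6 -0.21 (SE 0.106), while Uba1, the main activating enzyme, gave -0.09 and Vcp, the p97 unfoldase itself, -0.0026. The 6 ubiquitin shuttles had a median of 0.01, with Ubqln2 at -0.17 and Rad23b at 0.04.

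The 4 muscle ubiquitin ligases tested had a median of -0.19 on the log2 scale. None was called by edgeR or DESeq2, against 0% and 5.94% of all genes. Trim63, the ligase MuRF1 of striated muscle, stood at 1.17, 0.356 and 0 CPM in heterozygous and at 2.86 and 4.21 CPM in homozygous libraries, a log2 fold change of 2.73 (SE 0.808; edgeR adjusted p = 0.186). With no filter on low counts the edgeR adjusted p was 0.000234, the only alternative that called it, and the log2 fold change ran from 2.24 to 4.19 over all 11 alternatives (4.14 without heterozygous replicate 1). Its lowest library is heterozygous replicate 3, as for the skeletal muscle markers, and the part of muscle tissue in this value was not tested. Fbxo32, the ligase atrogin, gave -0.17 (SE 0.197), Fbxo40 -0.44 (SE 0.244) and Fbxo30 -0.20 (SE 0.174), each with overlapping groups.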

How the data were processed

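RNA of individual aortae was sequenced from stranded poly(A) libraries, per the labels' protocols. The authors deposited raw whole-number counts per gene. Per the submitters' processing notes, the tools were fastp 0.20.0, STAR 2.7.0f and Subread 1.6.4 with its featureCounts, and the build GRCm38. For the annotation release and strand setting, nothing is given in the sources used here.

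Groups came from the genotype labels. Genes passing edgeR's filterByExpr (18192) were scaled by TMM and tested with edgeR 4.0.16 in R 4.3.3 (quasi-likelihood F test on group alone, Benjamini-Hochberg adjustment over all genes, threshold 0.05). With 3 residual degrees of freedom (4.01 prior), the biological coefficient of variation came to 15.8%. CPM values follow TMM, SE is the standard error of a log2 fold change, and TPM uses transcript lengths from GENCODE mouse release M21. The calculations were tested on simulated data. Replicate libraries all differed by more than sampling noise.

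The members and gene lists were chosen with earlier results of these data known. Genes named were the catalytic subunits, Psme1, Psme2, the 2 most abundant members of each other role, the 4 members with the smallest p in each direction, and 2 by p and 2 by abundance of each pathway list. Others are named for their role, place or count. Some genes and a motif that the rule or the search covered are not reported here, though list counts and medians include the genes. Alternatives were DESeq2 1.42.0 and its size factors, limma-voom 3.58.1, no filter or a stricter one on low counts, a replicate block, and each library left out. Exon-union lengths were added after seeing the data.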

Additional observations from a re-analysis of the deposited data

How the results depend on the processing

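The count of members called was 0 under all 11 alternatives, and every immunoproteasome log2 fold change stayed above 0. Over all genes, edgeR called 0 in each direction, against 524 higher and 411 lower by DESeq2, 982 and 432 with no filter on low counts, 0 and 1 by limma-voom and 3 and 2 with the replicate block. Leaving out 1 library gave 0 to 139 genes higher, the most without heterozygous replicate 2, and 0 to 9 lower. Deviations from the group mean correlated at -0.0099 between the libraries numbered 2 and at -0.19 between those numbered 3. With only 2 homozygous libraries, their deviations mirror each other, so these correlations are not separate checks. Whether same-numbered libraries share more than a number was not tested. With the replicate block 1 member was higher at an unadjusted p under 0.05, against 0 to 2 higher and 0 to 1 lower with 1 library left out; Psmb8 and Psme2 both missed that level when homozygous replicate 2 or homozygous replicate 3 was left out. The causes were not tested.

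Median log2 fold changes with 1 library left out ran from 0.20 to 0.26 for the immunoproteasome, -0.042 to 0.087 for the alpha ring, -0.093 to 0.045 for the beta ring, -0.11 to 0.012 for the ATPases, -0.13 to 0.023 for the non-ATPase base, -0.076 to 0.047 for the lid and -0.072 to 0.029 for the core chaperones (-0.070 with the replicate block). They ran from -0.082 to 0.014 for proteasome genes outside the pattern, -0.11 to 0.038 for the NRF1 genes, -0.33 to 0.0070 for the muscle ligases and 0.084 to 0.20 for the interferon genes.

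Of 49 single genes followed, 33 kept their sign under every alternative and 16 did not. With 1 library left out the values of these were -0.11 to 0.16 for Psmb5, -0.15 to 0.015 for Psmb6, -0.044 to 0.13 for Psmb7, -0.042 to 0.21 for Psma1, -0.041 to 0.074 for Psma2, -0.19 to 0.095 for Psmc6, -0.15 to 0.10 for Psmd1, -0.070 to 0.056 for Psmd8, -0.0075 to 0.065 for Psmd11, -0.023 to 0.15 for Psme3, -0.33 to 0.0100 for Uchl5, -0.20 to 0.036 for Usp14, -0.093 to 0.081 for Vcp, -0.51 to 0.054 for Fbxo30, -0.32 to 0.028 for Fbxo32 and -0.019 to 0.093 for Tapbp. Genes that kept their sign also moved, as Fbxo40 (-0.60 to -0.13), Mafg (-0.28 to -0.051), Psmd5 (-0.30 to -0.072), Psmd9 (0.036 to 0.20) and Nfe2l1 (0.0059 to 0.12) show. With DESeq2 size factors, no filter and the stricter filter, Psmb5 gave 0.0054, 0.012 and 0.0049, Psmd8 0.0045, 0.012 and 0.0037, and Vcp 0.0041, 0.011 and 0.0035; limma-voom gave 0.00048 for Psmd8. The replicate block gave 0.025 for Psmb5, -0.0021 for Psmd11, -0.020 for Psme3, 0.011 for Vcp and 0.024 for Fbxo32. Depth limits Psma8 and Psmb11 most.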
